A study of Mus musculus with 45 samples.

Results

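Klf1, Klf3, Nfe2, Bcl11a, Zbtb7a and Sox6 encode 6 transcription factors that regulate late erythroid and globin genes. They were found by symbol among the 13449 genes of the deposited expression table, with 1 row each, and all 6 passed the filter on low counts in every comparison. The libraries came from E15.5 mouse fetal liver, the main site of red cell production at that stage, in 4 genotypes: VavCre Rpl5flox/+, VavCre Rps19flox/+, Rpl5flox/+ and Rps19flox/+. VavCre is a Cre recombinase made under the Vav promoter, which is active in blood cells, so deletion of 1 floxed copy of Rpl5 or Rps19 is confined by design to that lineage. Rpl5 and Rps19 encode proteins of the large and the small ribosomal subunit, and loss of 1 copy of either causes Diamond-Blackfan anemia in humans. The control groups carried the same floxed allele without Cre, and cells with VavCre alone were not analysed here. All livers were treated with emetine (25 µg/mL for 15 min), cells were pooled by genotype, and Kit+ progenitors and Ter119+ maturing erythroid cells were separated with magnetic beads. Poly(A) RNA of the cytoplasm (24 libraries) and of the polysome fraction (21 libraries) was sequenced. There were 3 libraries in 14 of the 16 groups, 2 on polysomes of Rpl5flox/+ Ter119+ cells and 1 on polysomes of VavCre Rpl5flox/+ Kit+ cells. Values are normalized counts, that is reads divided by the size factor of the library, and SD is the spread between libraries of a group. Nothing states whether the pools of a group came from separate litters, so p-values measure the spread between these pools. Overlap or its absence between compared groups is a description of the members, with no share of all genes beside it.

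Red cell precursors switch on globin and membrane genes through a small set of DNA-binding factors. Klf1 is an erythroid activator that binds CACCC boxes in the adult beta-globin promoter and in many genes of heme synthesis and the membrane. Klf3 is a repressor of the same Krüppel-like family, recruits Ctbp corepressors, binds similar sites and is itself activated by Klf1. Nfe2 is the large subunit of a dimer with small Maf proteins that acts at the globin locus control region and is needed for platelet release. Bcl11a, Zbtb7a and Sox6 are repressors that silence embryonic globin genes in mouse and fetal globin in human red cells, acting in part through histone deacetylase complexes.

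The depth (M for mega) was 22.9 to 70.1 M reads in Kit+ cytoplasm, 45.0 to 123 M in Ter119+ cytoplasm, 1.01 to 37.6 M in Kit+ polysome and 1.02 to 39.8 M in Ter119+ polysome, and 4 polysome libraries held fewer than 2 M reads. Rpl5 averaged 531 normalized counts in VavCre Rpl5flox/+ Kit+ cytoplasm against 1046 in Rpl5flox/+, but 499.9 (454.7 to 548.6) against 368 (295 to 459) in Ter119+ cytoplasm, where it was not lower. Rps19 averaged 12940 against 18040 in Kit+ and 12020 against 13840 in Ter119+ cytoplasm of its line. Globin genes took 28.3 to 40.0% of reads in VavCre Rpl5flox/+ Ter119+ cytoplasm, 46.7 to 49.1% in VavCre Rps19flox/+, and 52.0 to 63.4% and 54.6 to 57.5% in the Rpl5flox/+ and Rps19flox/+ controls. Kit was 5.03 log2 units lower in Ter119+ than in Kit+ control cytoplasm. Kit itself ran at 721 to 852 normalized counts in VavCre Rpl5flox/+ Ter119+ cytoplasm against 25.8 to 83.4 in Rpl5flox/+, and at 230 to 363 in VavCre Rps19flox/+ against 3.54 to 67.9 in Rps19flox/+.

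The positions below are those of mouse assembly GRCm38.p6 and span whole genes, exons and introns included. Klf1 lies at chr8:84901982-84905291, Klf3 at chr5:64803521-64832901, Nfe2 at chr15:103248212-103258403, Bcl11a at chr11:24076564-24173558, Zbtb7a at chr10:81135225-81152222 and Sox6 at chr7:115470872-116040776. Klf3 overlaps Gm38457 and Gm31684, Bcl11a overlaps 4930538E20Rik, and Sox6 overlaps Gm51455 and Sox6os. Whether counting used the strand is not given in the sources used here, so reads from these partners cannot be told apart from the members' own.

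The promoters of 3 of the members that fell together below, Klf1, Klf3 and Zbtb7a, are shown with that of Bcl11a, which was not lower with them. Each is a RefSeq stretch of GRCm38.p6 from 250 bases before to 50 after a start site, on the plus strand, at chr8:84901732-84902031 for Klf1, chr5:64803271-64803570 for Klf3, chr10:81136021-81136320 for Zbtb7a and chr11:24080445-24080744 for Bcl11a. The Klf1 and Klf3 windows begin before the gene starts given above, while those of Zbtb7a and Bcl11a lie wholly inside the gene spans. Capitals mark matches, on either strand, to CCNCNCCC (the CACCC and GC box shape that Klf factors bind), GATAA (bound by Gata1), TGANTCA (the core of the Nfe2 site) and CCAAT.
Klf1: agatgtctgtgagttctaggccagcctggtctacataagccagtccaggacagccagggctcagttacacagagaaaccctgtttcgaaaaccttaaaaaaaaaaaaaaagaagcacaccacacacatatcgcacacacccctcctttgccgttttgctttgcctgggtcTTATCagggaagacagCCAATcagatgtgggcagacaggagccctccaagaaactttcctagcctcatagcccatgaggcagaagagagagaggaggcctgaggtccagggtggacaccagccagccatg
Klf3: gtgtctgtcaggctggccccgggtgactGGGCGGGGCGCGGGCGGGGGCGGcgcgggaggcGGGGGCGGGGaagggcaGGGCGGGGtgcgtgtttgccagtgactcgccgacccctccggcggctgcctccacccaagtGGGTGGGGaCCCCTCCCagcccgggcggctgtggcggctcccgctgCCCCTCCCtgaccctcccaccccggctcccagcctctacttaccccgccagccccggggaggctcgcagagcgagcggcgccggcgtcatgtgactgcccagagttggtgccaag
Zbtb7a: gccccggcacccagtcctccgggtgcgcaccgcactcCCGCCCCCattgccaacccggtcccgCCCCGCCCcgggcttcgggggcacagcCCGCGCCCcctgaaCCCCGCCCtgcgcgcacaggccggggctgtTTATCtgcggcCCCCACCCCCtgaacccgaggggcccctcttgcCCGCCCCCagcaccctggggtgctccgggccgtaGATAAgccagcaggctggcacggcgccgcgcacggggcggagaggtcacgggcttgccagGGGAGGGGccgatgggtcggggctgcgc
Bcl11a: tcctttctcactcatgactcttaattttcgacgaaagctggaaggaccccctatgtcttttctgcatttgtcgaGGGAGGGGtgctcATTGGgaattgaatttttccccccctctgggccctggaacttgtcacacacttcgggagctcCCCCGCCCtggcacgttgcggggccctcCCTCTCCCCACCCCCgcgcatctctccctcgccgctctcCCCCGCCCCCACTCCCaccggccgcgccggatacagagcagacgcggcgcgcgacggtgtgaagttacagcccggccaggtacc
Klf1 held no CCNCNCCC, 1 GATAA on the minus strand 80 bases before the start and 1 CCAAT 64 bases before it. Klf3 held 10 CCNCNCCC matches, some of which overlap each other, and none of the other motifs. Zbtb7a held 8 CCNCNCCC and 2 GATAA matches, at 116 and 38 bases before the start, and Bcl11a held 8 CCNCNCCC and 1 CCAAT on the minus strand 163 bases before it. TGANTCA was in none of these windows. Of 32851 promoters of the same length in the table, 49.5% held CCNCNCCC, 25.4% GATAA, 7.81% TGANTCA and 37.4% CCAAT, and the GC content of the windows was 51.3% in Klf1, 76.7% in Klf3, 77.7% in Zbtb7a and 63.0% in Bcl11a. Sox6, which fell with these 3 members, has several start sites, and its windows are not printed. Each Sox6 window held 0 to 2 CCNCNCCC, 0 to 2 GATAA and 0 to 4 CCAAT matches. No promoter of Nfe2 was available. A match is a run of letters and not a bound site.

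Maturation in control cells separated Bcl11a from the other 5 members. In cytoplasm, Klf1, Klf3, Nfe2, Zbtb7a and Sox6 were higher in Ter119+ than in Kit+ controls and Bcl11a was lower, all 6 passing a test that called 80.3% of all genes. Sox6 rose most, with 9820.0 ± 2855 normalized counts (SD, n = 3) in Rpl5flox/+ and 6036 ± 1637 in Rps19flox/+ Ter119+ cells, against 311 ± 51.0 and 327 ± 57.4 in the Kit+ cells of these lines, a log2 difference of 4.50 ± 0.16 (adjusted p = 5.27e-17). Nfe2 stood at 27302 ± 9059 and 21355 ± 1714 in Ter119+ cells against 1487 ± 91.9 and 1450.4 ± 103 in Kit+ cells, or 4.00 ± 0.11 (adjusted p = 1.4e-18). For both genes every Ter119+ control library lay far above every Kit+ library.

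Klf3 rose by 3.78 ± 0.12 (adjusted p = 7.29e-18), with 14566 ± 1549 and 9659 ± 2127 in Ter119+ controls against 857 ± 102 and 837 ± 89.8 in Kit+ controls. Klf1 was already present in Kit+ controls, at 3556 ± 381 and 3858 ± 234, and stood at 19991 ± 3738 and 16673 ± 1441 in Ter119+ controls, 2.29 ± 0.10 (adjusted p = 2.69e-15). Zbtb7a had a smaller difference of 1.76 ± 0.10 (adjusted p = 3.2e-13), with 4715 ± 265 and 4388 ± 722 in Ter119+ controls against 1296 ± 158 and 1357 ± 120.5 in Kit+ controls. Bcl11a went the other way, at 803 ± 262 and 1039.8 ± 37.5 in Ter119+ against 1429 ± 77.2 and 1559 ± 105 in Kit+ controls, -0.72 ± 0.11 (adjusted p = 4.32e-06). These differences are relative to the other genes of a library, whose median difference was -0.14 on this scale, -1.04 per M reads outside globin genes and -1.98 per M reads, with 45.2%, 17.6% and 6.23% of called genes higher. Per M reads Klf1 did not differ (0.07, adjusted p = 0.592) and Zbtb7a was lower (-0.44, adjusted p = 0.00876), while the other members kept their direction. Less RNA of a gene per cell and fewer cells of a type cannot be told apart in these bulk libraries, here or below.

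**Figure D1:**
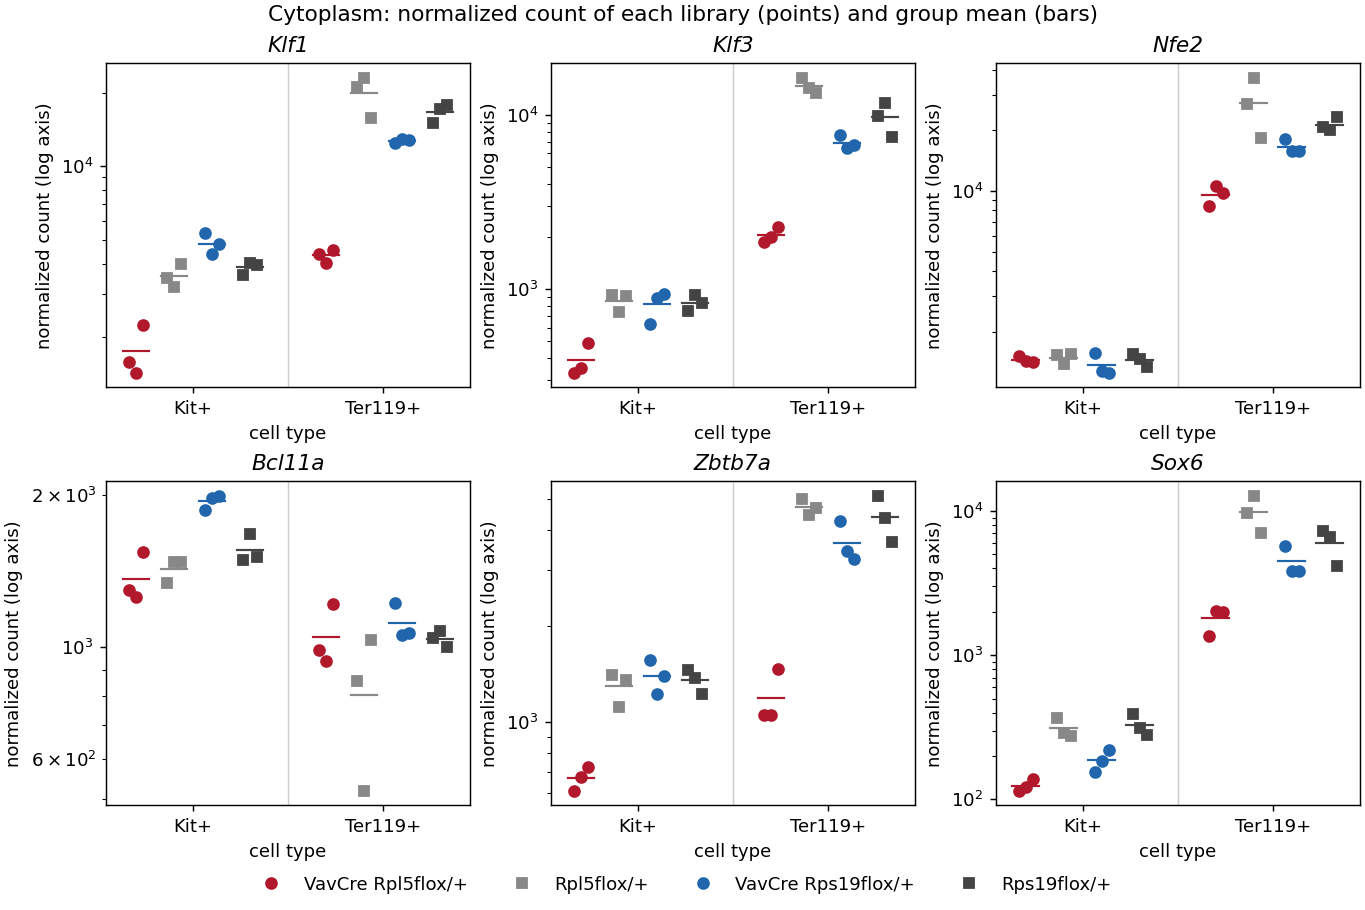
Normalized counts (log axis) of the 6 genes in each of the 24 cytoplasm libraries, by genotype in Kit+ and Ter119+ cells, with points for libraries and bars for group means. VavCre Rpl5flox/+ libraries lie below Rpl5flox/+ libraries for Klf1, Klf3, Zbtb7a and Sox6 in both cell types and for Nfe2 in Ter119+ cells, while Bcl11a overlaps.

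In VavCre Rpl5flox/+ Kit+ cytoplasm, 4 of the 6 members fell: Klf1, Klf3, Zbtb7a and Sox6 were 2.05-fold, 2.17-fold, 1.91-fold and 2.32-fold lower than in Rpl5flox/+. Nfe2 and Bcl11a did not pass the test, which called 37.2% of all genes. Klf1 was at 1579, 1432 and 2241 normalized counts in VavCre Rpl5flox/+, against 3485, 3215 and 3968 in Rpl5flox/+. Klf3 was at 331, 354 and 489 normalized counts in VavCre Rpl5flox/+, against 923, 739 and 908 in Rpl5flox/+. All VavCre libraries of both genes lay below all controls, with log2 changes of -1.04 ± 0.14 (adjusted p = 8.45e-05) for Klf1 and -1.12 ± 0.16 (adjusted p = 0.000181) for Klf3. Zbtb7a had 611, 673 and 725 normalized counts in VavCre Rpl5flox/+, against 1412, 1116 and 1359.7 in Rpl5flox/+. Sox6 was scarce in progenitors, with 115, 121 and 138 normalized counts in VavCre Rpl5flox/+, against 369.6, 286 and 277 in Rpl5flox/+. The groups did not overlap for either repressor, and the changes were -0.93 ± 0.12 (adjusted p = 4.51e-05) for Zbtb7a and -1.22 ± 0.16 (adjusted p = 7.01e-05) for Sox6. Nfe2 had 1509.7, 1436 and 1414 normalized counts in VavCre Rpl5flox/+, against 1526, 1382 and 1553 in Rpl5flox/+, so the VavCre values lay inside the control range (-0.03 ± 0.09 (adjusted p = 0.822)). Bcl11a had 1298, 1259 and 1542 normalized counts in VavCre Rpl5flox/+, against 1339.6, 1474 and 1473 in Rpl5flox/+, with overlap and a change of -0.07 ± 0.09 (adjusted p = 0.583). The median change of all genes here was 0.03, and it was -0.03 per M reads and -0.05 per M reads outside globin genes, so the scaling moves these values little, although the share of called genes that were higher was 55.9%, 48.4% and 44.9% on these scales.

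Markers of other cells moved with this contrast. All 8 of the erythroid markers tested were lower, their summed counts being 70450 to 77010 in VavCre Rpl5flox/+ against 190600 to 271500 in Rpl5flox/+ Kit+ cytoplasm. Of 15 granulocyte and monocyte markers 11 were higher (sum 60200 to 118700 against 30490 to 34140), of 10 stem and progenitor markers 6 (7205 to 8169 against 5468 to 6185), and of 12 hepatocyte markers 11 (22420 to 41400 against 5787 to 18480). All 8 B-lymphoid markers tested were lower. None of the markers in these lists was at 0 in a whole group, and their part in the lower Klf1, Klf3, Zbtb7a and Sox6 was not tested.

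In VavCre Rps19flox/+ Kit+ cytoplasm 2 members were called, Sox6 lower and Bcl11a higher, where 53.7% of all genes were called. Sox6 had 156, 186 and 221 normalized counts in VavCre Rps19flox/+, against 390.3, 314 and 278 in Rps19flox/+, without overlap (-0.76 ± 0.16 (adjusted p = 0.00135), 1.69-fold lower). Bcl11a had 1869.6, 1974 and 1997 normalized counts in VavCre Rps19flox/+, against 1486, 1679.9 and 1512 in Rps19flox/+, again without overlap (0.32 ± 0.09 (adjusted p = 0.00795), 1.25-fold higher). Thus the 2 members that were called in this line moved in opposite directions. Klf1 had 5326, 4365 and 4789 normalized counts in VavCre Rps19flox/+, against 3590.4, 4024 and 3959 in Rps19flox/+, all VavCre libraries lying above all controls, but its change of 0.32 ± 0.14 (adjusted p = 0.0669) missed the threshold, and passed it with the replicate number as a block (adjusted p = 0.0183) or with only these groups in the fit (0.0210). Klf3 had 633, 887 and 939.7 normalized counts in VavCre Rps19flox/+, against 749.8, 929 and 831 in Rps19flox/+ (-0.04 ± 0.16 (adjusted p = 0.836)). Nfe2 had 1568, 1269.7 and 1251 normalized counts in VavCre Rps19flox/+, against 1548, 1460.3 and 1343 in Rps19flox/+ (-0.09 ± 0.09 (adjusted p = 0.418)), and Zbtb7a had 1574, 1227 and 1396 normalized counts in VavCre Rps19flox/+, against 1464, 1382 and 1226 in Rps19flox/+ (0.04 ± 0.12 (adjusted p = 0.788)). The groups overlapped for these last 3 genes. Granulocyte and monocyte markers were lower here in 15 of 15 (sum 4122 to 8669 in VavCre Rps19flox/+ against 20660 to 29150 in Rps19flox/+), stem and progenitor markers in 7 of 10 (3790 to 4653 against 4764 to 5600) and erythroid markers in 3 of 8 (98010 to 175500 against 175400 to 310000). All 8 B-lymphoid markers tested were lower as well (27.9 to 53.8 against 643 to 1390), and so were 8 of 9 megakaryocyte and platelet markers (524 to 635 against 1039 to 1125). The part of all these in the changes of Sox6 and Bcl11a was not tested.

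The changes of the 2 lines differed in Kit+ cytoplasm for 4 members, each change measured against its own control pools. The difference (change with Rpl5 minus change with Rps19) was -1.36 ± 0.20 (adjusted p = 0.000122) for Klf1, -1.07 ± 0.23 (adjusted p = 0.00197) for Klf3, -0.97 ± 0.16 (adjusted p = 0.000325) for Zbtb7a and -0.39 ± 0.13 (adjusted p = 0.0207) for Bcl11a, with 48.2% of all genes called. The call of Bcl11a was lost (adjusted p up to 0.0548) in 3 of 12 fits without 1 library: VavCre Rpl5flox/+ replicate 1, VavCre Rpl5flox/+ replicate 2 and Rps19flox/+ replicate 1. Klf1, Klf3 and Zbtb7a had fallen with Rpl5 and not passed with Rps19, whereas Bcl11a had risen with Rps19 and not passed with Rpl5. For Sox6, which fell in both lines, the difference of -0.46 ± 0.22 (adjusted p = 0.106) did not pass, and neither did that of Nfe2 (0.06 ± 0.13 (adjusted p = 0.720)).

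**Figure D2:**
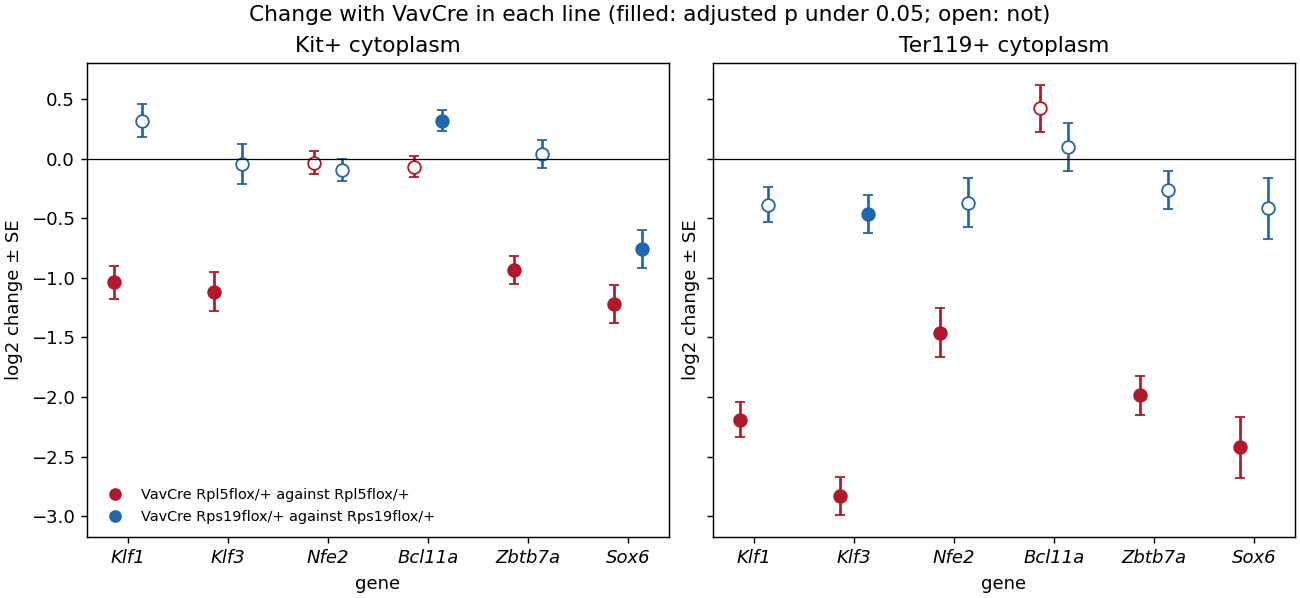
Log2 change of each gene in cytoplasm, VavCre against the floxed control of its line, in Kit+ and Ter119+ cells, with Rpl5 in red and Rps19 in blue, bars for the SE and filled points for an adjusted p under 0.05. Rpl5 changes reach -2.83 (Klf3) in Ter119+ cells, while Rps19 changes stay between -0.76 (Sox6 in Kit+) and 0.32.

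In VavCre Rpl5flox/+ Ter119+ cytoplasm the decrease was larger and took in Nfe2. Klf3 was 7.12-fold, Sox6 5.36-fold, Klf1 4.56-fold, Zbtb7a 3.96-fold and Nfe2 2.75-fold lower than in Rpl5flox/+, and Bcl11a did not pass. The test called 65.5% of all genes, so 5 of 6 members stands near the background. Klf3 had 1850.0, 1993 and 2255 normalized counts in VavCre Rpl5flox/+, against 16276, 14167 and 13255 in Rpl5flox/+. Sox6 had 1353, 2042 and 1999.6 normalized counts in VavCre Rpl5flox/+, against 9627, 12767 and 7066 in Rpl5flox/+. The highest VavCre library of each was well below the lowest control, and the changes were -2.83 ± 0.16 (adjusted p = 2.66e-08) for Klf3 and -2.42 ± 0.26 (adjusted p = 2.76e-06) for Sox6. Klf1 had 4372, 4021 and 4568 normalized counts in VavCre Rpl5flox/+, against 21171, 22997 and 15806 in Rpl5flox/+, a change of -2.19 ± 0.15 (adjusted p = 5.91e-08). Zbtb7a had 1054, 1054 and 1471 normalized counts in VavCre Rpl5flox/+, against 4994, 4467 and 4685 in Rpl5flox/+, a change of -1.99 ± 0.16 (adjusted p = 3.02e-07). Neither gene overlapped between groups. The VavCre Ter119+ libraries of Zbtb7a lay just outside the range of the Kit+ controls of both lines (1115.6 to 1463.5), on either side. Nfe2 had 8467, 10526 and 9754 normalized counts in VavCre Rpl5flox/+, against 27113, 36454 and 18339 in Rpl5flox/+, a change of -1.46 ± 0.20 (adjusted p = 2.89e-05), without overlap. Bcl11a had 986, 939 and 1219 normalized counts in VavCre Rpl5flox/+, against 858, 519 and 1034 in Rpl5flox/+, where the groups overlapped. Its change of 0.42 ± 0.20 (adjusted p = 0.0769) passed with the replicate number as a block (adjusted p = 0.0199).

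These Ter119+ changes depend on what the libraries are scaled to, and the globin share of reads given above differed between the groups. The median change of all genes was 0.16 on the deposited scale, 0.81 per M reads outside globin genes and 1.36 per M reads, and 54.0%, 79.4% and 92.6% of the genes called were then higher. Per M reads Klf1 averaged 228 ± 43.1 in VavCre Rpl5flox/+ against 404 ± 68.3 in Rpl5flox/+ (SD, n = 3), Klf3 107 ± 21.6 against 304 ± 93.4, and Sox6 93.8 ± 21.7 against 193 ± 11.5. On that scale Klf3 (-1.47), Sox6 (-1.06), Klf1 (-0.83) and Zbtb7a (-0.63) were still called lower. Nfe2 averaged 499 ± 59.4 per M reads against 532 ± 14.9 and was not (-0.10, adjusted p = 0.554). Bcl11a averaged 55.5 ± 14.5 against 18.2 ± 11.3 and was called higher per M reads (1.76, adjusted p = 9.8e-05) and outside globin genes (1.14, adjusted p = 0.00149). Scaling moves all genes of a library alike, so by construction the members kept nearly the same place relative to the median of all genes. Relative to it, on the deposited scale, outside globin genes and per M reads, Klf3 was at -3.00, -2.92 and -2.83, Klf1 at -2.35, -2.28 and -2.19, and Nfe2 at -1.62, -1.55 and -1.46. These values are no test of the scaling.

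**Figure D3:**
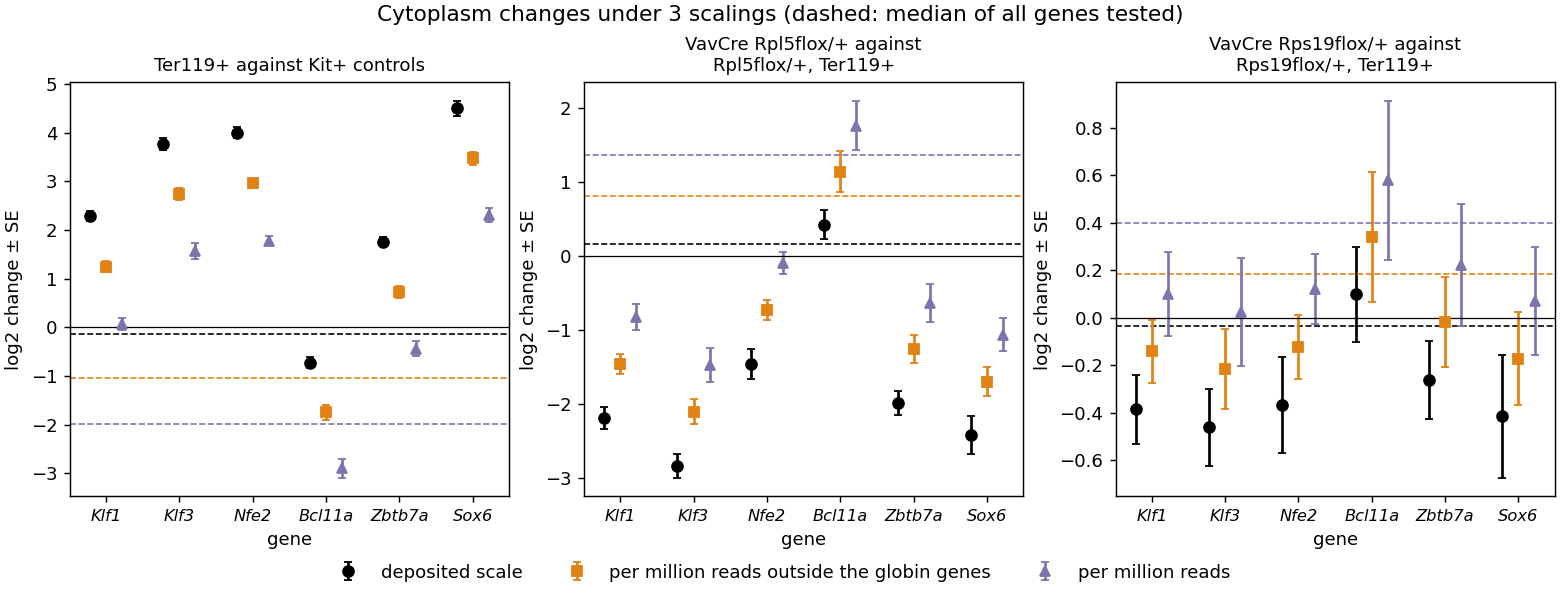
Log2 changes of the 6 genes under 3 scalings of the libraries (black, deposited; orange, per M reads outside globin genes; purple, per M reads), with the median of all genes as dashed lines. In VavCre Rpl5flox/+ Ter119+ cytoplasm the median moves between 0.16 and 1.36 and the members move with it, Nfe2 reaching -0.10 and Bcl11a 1.76 per M reads.

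Cell markers moved with this contrast too. The 8 erythroid markers were all lower (sum 4921000 to 8827000 in VavCre Rpl5flox/+ against 18570000 to 45980000 in Rpl5flox/+ Ter119+ cytoplasm), 13 of 15 granulocyte and monocyte markers were higher (56880 to 116500 against 10730 to 20520), and 9 of 10 stem and progenitor markers were higher (3939 to 4086 against 853 to 1252). No marker of these lists was at 0 in either group, and the part of these cells in the lower Klf3, Sox6, Klf1, Zbtb7a and Nfe2 was not tested.

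In VavCre Rps19flox/+ Ter119+ cytoplasm only Klf3 was called, lower by a small margin, where 25.8% of all genes were called. Klf3 had 7627, 6412 and 6691 normalized counts in VavCre Rps19flox/+, against 9844, 11687 and 7445 in Rps19flox/+, and the highest VavCre library lay above the lowest control. Its change of -0.46 ± 0.16 (adjusted p = 0.0496) lost the call in 5 of 6 fits with a library left out, the exception being the fit without Rps19flox/+ replicate 3, and per M reads it was 0.02. Klf1 had 12430.0, 12935 and 12799 normalized counts in VavCre Rps19flox/+, against 15073, 17079 and 17868 in Rps19flox/+ (-0.39 ± 0.15 (adjusted p = 0.0661)). Nfe2 had 18026, 15766 and 15821 normalized counts in VavCre Rps19flox/+, against 20664, 20095 and 23307 in Rps19flox/+ (-0.37 ± 0.20 (adjusted p = 0.199)). All VavCre libraries of Klf1 and Nfe2 lay below all controls, though how many other genes do so was not counted. Both passed when only these groups were fitted (adjusted p = 0.0185 and 0.0278), but per M reads their changes were 0.10 and 0.12. Zbtb7a had 4257, 3430.0 and 3254 normalized counts in VavCre Rps19flox/+, against 5124, 4359 and 3682 in Rps19flox/+ (-0.26 ± 0.16 (adjusted p = 0.250)), Sox6 had 5741, 3859 and 3835 normalized counts in VavCre Rps19flox/+, against 7282, 6645 and 4182 in Rps19flox/+ (-0.42 ± 0.26 (adjusted p = 0.251)), and Bcl11a had 1223, 1059 and 1067 normalized counts in VavCre Rps19flox/+, against 1044, 1075 and 1001 in Rps19flox/+ (0.10 ± 0.20 (adjusted p = 0.746)). These last 3 genes overlapped between groups. The share of called genes that were higher was 48.4%, against 73.2% outside globin genes and 88.5% per M reads. Granulocyte and monocyte markers were lower in 10 of 15 (sum 2411 to 4306 against 10160 to 21060) and erythroid markers in 1 of 8 (13410000 to 14560000 against 22480000 to 23480000), and macrophage markers in 7 of 9 (723 to 1215 against 1468 to 4753), with the B-lymphoid genes Pax5 and Ebf1 at 0 in VavCre Rps19flox/+. Their part in the Klf3 value was not tested.

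The lines differed in Ter119+ cytoplasm for all members but Bcl11a. The difference was -2.37 ± 0.23 (adjusted p = 1.84e-05) for Klf3, -2.01 ± 0.36 (adjusted p = 0.000814) for Sox6, -1.80 ± 0.21 (adjusted p = 4.3e-05) for Klf1, -1.72 ± 0.23 (adjusted p = 0.000108) for Zbtb7a and -1.09 ± 0.29 (adjusted p = 0.00824) for Nfe2, against 0.33 ± 0.28 (adjusted p = 0.379) for Bcl11a, and 41.5% of all genes were called. Per M reads the differences of Nfe2 (-0.21, adjusted p = 0.401) and Zbtb7a (-0.85, adjusted p = 0.0609) did not pass and that of Bcl11a did (1.18, adjusted p = 0.0478). The called genes were higher in 49.5%, against 75.3% outside globin genes and 90.5% per M reads.

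On the deposited scale the rise of 5 members with maturation was smaller with the Rpl5 deletion, and per M reads none of these 5 differences was called. The Ter119+ minus Kit+ step of VavCre Rpl5flox/+ cells, less that of Rpl5flox/+ cells, was -1.72 ± 0.24 (adjusted p = 6.45e-06) for Klf3, -1.43 ± 0.22 (adjusted p = 2.76e-05) for Nfe2, -1.21 ± 0.32 (adjusted p = 0.00362) for Sox6, -1.15 ± 0.20 (adjusted p = 8.93e-05) for Klf1 and -1.05 ± 0.20 (adjusted p = 0.000235) for Zbtb7a, with 48.4% of all genes called. On this scale Nfe2 was level with controls in Kit+ cells and lower in Ter119+ cells, whereas Klf1 and Zbtb7a were lower in both. That contrast between genes was not tested, and per M reads Nfe2 was not called lower in Ter119+ cells (-0.10, adjusted p = 0.554). Bcl11a had 0.49 ± 0.23 (adjusted p = 0.0784), and 0.0425 with a replicate block. With Rps19 only Klf1 was called (-0.71 ± 0.20 (adjusted p = 0.0266)), where 12.3% of genes were, and its call was lost in 4 of 12 fits without 1 library: VavCre Rps19flox/+ Ter119+ replicate 3, VavCre Rps19flox/+ Kit+ replicate 1, Rps19flox/+ Ter119+ replicate 2 and Rps19flox/+ Kit+ replicate 1. This Klf1 difference was also not called per M reads (-0.20, adjusted p = 0.607) or outside globin genes (-0.43, adjusted p = 0.205). Per M reads the median of the Rpl5 step moved to 1.22 (outside globin genes 0.78, deposited scale 0.10), and the signs turned for Klf1 (0.28), Zbtb7a (0.38), Sox6 (0.26) and Nfe2 (0.0014), while Klf3 was at -0.28 (adjusted p = 0.436). The 1 member called on that scale was Bcl11a, with a higher step (1.86, adjusted p = 0.000133). The called genes were then higher in 98.0% (88.3% outside globin genes), against 53.3% on the deposited scale, and for Rps19 in 95.1% (79.2%), against 32.0%.

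Ordered by mean in cytoplasm, VavCre Rpl5flox/+ Kit+ libraries came lowest for Klf1, Klf3, Zbtb7a and Sox6, and Rpl5flox/+ Ter119+ libraries came highest for these and for Nfe2. VavCre Rpl5flox/+ Ter119+ libraries stood lowest among the Ter119+ groups for these 5 genes. For Klf1 their mean fell between those of Rps19flox/+ Kit+ and VavCre Rps19flox/+ Kit+ libraries, and they overlapped with both groups. For Zbtb7a they overlapped with Rpl5flox/+ Kit+. Neighbouring groups did not differ beyond their spread among the 4 Kit+ groups of Nfe2, among the 4 Ter119+ groups of Bcl11a, between the 2 control groups of Ter119+ cells for Klf1, Nfe2, Zbtb7a and Sox6, and between the 2 control groups of Kit+ cells for all members but Bcl11a. Rpl5flox/+ and Rps19flox/+ Ter119+ libraries did not overlap for Klf3.

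Among genes that Klf1 is known to activate, 17 of 20 tested fell in VavCre Rpl5flox/+ Kit+ cytoplasm and 1 rose, with a median of -1.5 against 0.03 for all genes. Their 4 smallest adjusted p-values belonged to Epb42 -2.10 ± 0.14 and Slc4a1 -3.04 ± 0.22, which encode red cell membrane proteins, Trim10 -1.95 ± 0.15 and the blood group gene Kel -1.28 ± 0.10. In Ter119+ cytoplasm 19 of 19 fell with Rpl5 (median -2.41 against 0.16), among them the water channel gene Aqp1 -3.00 ± 0.14 and Icam4 -2.61 ± 0.13, and per M reads 17 of 20 were lower and 2 higher. With Rps19 4 of 20 were lower and 3 higher in Kit+ cells (median -0.13 against 0.01), and 4 of 19 lower and 1 higher in Ter119+ cells (-0.47 against -0.03). Tfr2, a transferrin receptor gene, was higher in both Rps19 cell types (1.27 and 0.52). In control cells 19 of 20 were higher in Ter119+ than in Kit+ cytoplasm. Several of these genes also stand among the erythroid markers above, and the part of Klf1 in their changes was not tested.

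Embryonic globin genes, which the 3 repressors silence, were counted apart from adult ones. In VavCre Rpl5flox/+ Kit+ cytoplasm 2 of 3 embryonic globin genes rose, Hbb-y by 1.97 ± 0.35 (adjusted p = 0.000814) and Hba-x by 1.5 ± 0.35 (adjusted p = 0.00416), while Hbb-bh1 did not pass (-0.43). All 4 adult globin genes fell there, with Hba-a2 at -1.78 and Hbb-bs at -1.92. The same counts held in Ter119+ cytoplasm, where Hba-x rose by 1.94 ± 0.45, Hbb-y by 2.14 ± 0.55, Hba-a1 was at -2.13 ± 0.59 and Hbb-bs at -2.39 ± 0.68, and on the scales per M reads no adult globin gene was higher and no embryonic one lower. With Rps19 in Kit+ cells Hbb-y rose by 1.28 and 2 of 4 adult globin genes fell, Hba-a1 (-1.14) and Hbb-bs (-1.0). None of the 7 globin genes passed in Rps19 Ter119+ cells on the deposited scale, while per M reads 3 of 3 embryonic ones were higher and 2 of 4 adult ones lower. Hba-a1 and Hba-a2 are near-identical copies between which reads may be split. The part of the repressors, and of the mix of cells, in these globin changes was not tested.

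Partners of the members fell less evenly. Their counts stand beside 37.2% (Kit+) and 65.5% (Ter119+) of all genes called with Rpl5, and 53.7% and 25.8% with Rps19. Of the small Maf and CNC factors, the family of the Nfe2 dimer, 5 of 6 fell with Rpl5 in Ter119+ cytoplasm (median -1.27), Mafg (-2.0 ± 0.21) and Mafk (-2.0 ± 0.22) among them, though per M reads 2 were higher and 2 lower. In Rpl5 Kit+ cells 2 of 7 fell (Bach2 -0.86, Mafk -0.40). With Rps19 the counts were 2 higher and 2 lower of 7 in Kit+ cells and 1 lower of 6 in Ter119+ cells (Mafg -0.78). Of the 17 corepressor genes of the nucleosome remodelling and Ctbp complexes, 3 rose and 2 fell with Rpl5 in Kit+ cells, and 3 rose and 10 fell in Ter119+ cells, a balance that turned per M reads (13 higher, 1 lower). Those 5 of 17 and 13 of 17 are below and near the share of all genes called. Ctbp1, a partner of Klf3, was lower in both (-0.61 and -1.64) and Ctbp2 higher in both (0.66 and 2.09). With Rps19 in Kit+ cells 10 rose and 2 fell, with Mta1 at 0.62, and in Ter119+ cells 2 rose and 4 fell (4 and 0 per M reads).

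Other Klf and Sp factors fell in 6 of 15 and rose in 3 with Rpl5 in Kit+ cells (Klf11 -1.2, Klf5 0.75), and fell in 9 of 14 and rose in 2 in Ter119+ cells (Sp2 -3.18, Klf11 -2.62), against 4 lower and 6 higher of 15 per M reads. With Rps19 they fell in 6 of 15 in Kit+ (Klf6 -1.87, Klf2 -1.59) and 6 of 14 in Ter119+ cells (Klf10 -0.96), with 1 higher in each and, per M reads, 1 lower and 1 higher in Ter119+ cells. Of 8 erythroid partner factors, 3 fell and 1 rose with Rpl5 in Kit+ cells (Tal1 -0.86, Zfpm1 -0.84), and 6 fell in Ter119+ cells (Tal1 -2.56, Gata1 -1.53) while the progenitor factor Myb rose (2.87). Per M reads the Ter119+ count was 3 lower and 2 higher. With Rps19, 5 of 8 rose in Kit+ cells, Zfpm1 by 1.33 and Gfi1b by 0.89, and Myb rose in Ter119+ cells by 2.01. Relatives of the repressors (Zbtb7b, Sox13 and Sox4 were tested) rose in 2 of 3 in Kit+ and 3 of 3 in Ter119+ cells with Rpl5, as Zbtb7b did by 0.92 and 1.70, and Sox4 fell in Rps19 Kit+ cells (-1.16). Of genes known to be repressed by Klf3, C1qtnf12 fell with Rpl5 in Kit+ cells (-0.98) and rose in Ter119+ cells (0.66), Lgals3 rose in Kit+ cells (0.78), and Klf8 did not pass. With Rps19, Lgals3 fell in Ter119+ cells (-1.28). Of platelet genes under Nfe2, only Tbxas1 in Rpl5 Ter119+ (-0.71), Rab27b in Rps19 Kit+ (-1.02) and Tubb1 in Rps19 Ter119+ cells (0.99) passed, while per M reads 2 of 3 were higher and 0 lower in Ter119+ cells of each line. The p53 targets rose in 7 of 7 in both lines in Kit+ cells (Cdkn1a 4.99 with Rpl5 and 5.77 with Rps19), in 6 of 7 with Rpl5 and 7 of 7 with Rps19 in Ter119+ cells (5.72 and 6.39).

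On polysomes Zbtb7a stood apart in Kit+ cells. With Rps19 it was the 1 member called, 5.35-fold lower, where 9.86% of all genes were called. Zbtb7a had 471, 407 and 488 normalized counts in VavCre Rps19flox/+, against 2015, 2120.1 and 3639 in Rps19flox/+, without overlap (-2.42 ± 0.36 (adjusted p = 0.00251)). In cytoplasm of the same pools it had not passed, and the polysome minus cytoplasm difference of VavCre Rps19flox/+ less that of Rps19flox/+ was -2.46 ± 0.41 (adjusted p = 0.0193), the only member called where 5.32% of genes were. With a replicate block that adjusted p was 0.165, and it was over the threshold (up to 0.0985) in 3 of 6 fits, those without VavCre Rps19flox/+ replicate 1, 2 or 3. Depth and composition moved with this contrast: VavCre Rps19flox/+ Kit+ polysome libraries held 10.8 to 37.6 M reads against 1.01 to 7.17 M in Rps19flox/+, and Lars2, a mitochondrial tRNA synthetase gene, took 4.51, 0.511 and 0.382% of reads against 43.0, 10.3 and 54.9%. Granulocyte and monocyte markers were lower in 5 of 15 (sum 3493 to 8926 in VavCre Rps19flox/+ against 42590 to 58730 in Rps19flox/+) and B-lymphoid markers in 2 of 8 (29.4 to 62.0 against 727 to 2742). The part of these in the Zbtb7a value was not tested. Without the 2 control libraries under 2 M reads the change was -2.19 ± 0.34 (adjusted p = 0.0166) and the polysome minus cytoplasm difference -2.20 ± 0.35 (adjusted p = 0.0418). That fit leaves 1 control pool of Rps19flox/+, assumed to vary like the other groups, and so cannot show the spread between control pools.

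The other members in Rps19 Kit+ polysome did not pass. Klf1 had 3747, 3751 and 4675 normalized counts in VavCre Rps19flox/+, against 955, 1617 and 3110.0 in Rps19flox/+ (1.25 ± 0.38 (adjusted p = 0.0647)). Bcl11a had 1311, 1595 and 1586 normalized counts in VavCre Rps19flox/+, against 145, 721 and 1046 in Rps19flox/+ (1.59 ± 0.61 (adjusted p = 0.123)), the lowest control resting on 7 reads. For both genes the VavCre libraries lay above all controls, and without the libraries under 2 M reads, where the control is again 1 library, they passed the threshold, Klf1 at 1.31 ± 0.21 (adjusted p = 0.0173) and Bcl11a at 1.03 ± 0.23 (adjusted p = 0.0387). Klf3, Nfe2 and Sox6 overlapped between groups, with changes of 0.60 ± 0.72 (adjusted p = 0.589), 0.56 ± 0.33 (adjusted p = 0.278) and 1.64 ± 1.52 (adjusted p = 0.478), Sox6 being at 0 in 1 control library. The median change of all genes was 1.11, and 1.82 per M reads, with 62.7% and 96.0% of called genes higher (95.9% outside globin genes), so relative to it Klf1 stood at 0.14 and Zbtb7a at -3.53.

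VavCre Rpl5flox/+ Kit+ polysome was 1 library, assumed to vary like the other groups. No member was called by limma, 1 (Zbtb7a) having an unadjusted p under 0.05, against 1.82% of all genes called and 1008 genes with an unadjusted p under 0.05. Zbtb7a had 499 normalized counts in VavCre Rpl5flox/+, against 2805, 1601 and 3460.3 in Rpl5flox/+, a change of -2.29 ± 0.51 (adjusted p = 0.0549), and Klf1 had 1037 normalized counts in VavCre Rpl5flox/+, against 2301, 1884 and 1677 in Rpl5flox/+ (-0.89 ± 0.53 (adjusted p = 0.706)). Both VavCre values lay below all controls. The place of a single library beside so few controls, here and for Klf3 next, is weak evidence of a change. Klf3 had 278 normalized counts in VavCre Rpl5flox/+, against 92.8, 68.2 and 213 in Rpl5flox/+, above them (1.21 ± 1.02 (adjusted p = 0.827)). Without the 3 Kit+ polysome libraries under 2 M reads (Rpl5flox/+ replicate 3 and Rps19flox/+ replicates 1 and 3) all 3 passed the threshold, Zbtb7a at -2.05 ± 0.36 (adjusted p = 0.0204), Klf1 at -0.99 ± 0.22 (adjusted p = 0.0381) and Klf3 at 1.63 ± 0.34 (adjusted p = 0.0331), in a fit that sets 1 library against 2, while with 1 Rpl5flox/+ library left out at most 1 member was called. The 1 VavCre library had a granulocyte and monocyte sum of 206400 against 66610 to 81240 in Rpl5flox/+ and an erythroid sum of 145100 against 327700 to 717400, with 0 of 15 and 3 of 8 markers called, and their part in these values was not tested. Nfe2, Bcl11a and Sox6 lay inside the control range, Sox6 on 26 reads. The lines did not differ for any member (1.51% of all genes called, 1545 with an unadjusted p under 0.05), and 1 member had an unadjusted p under 0.05, Klf1 (-2.14, adjusted p = 0.159), which passed without the libraries under 2 M reads (-2.31 ± 0.30 (adjusted p = 0.0164)), where VavCre Rpl5flox/+ and Rps19flox/+ are 1 library each. The genes called in that comparison were higher in 72.3%, against 27.8% per M reads and 53.8% outside globin genes.

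**Figure D4:**
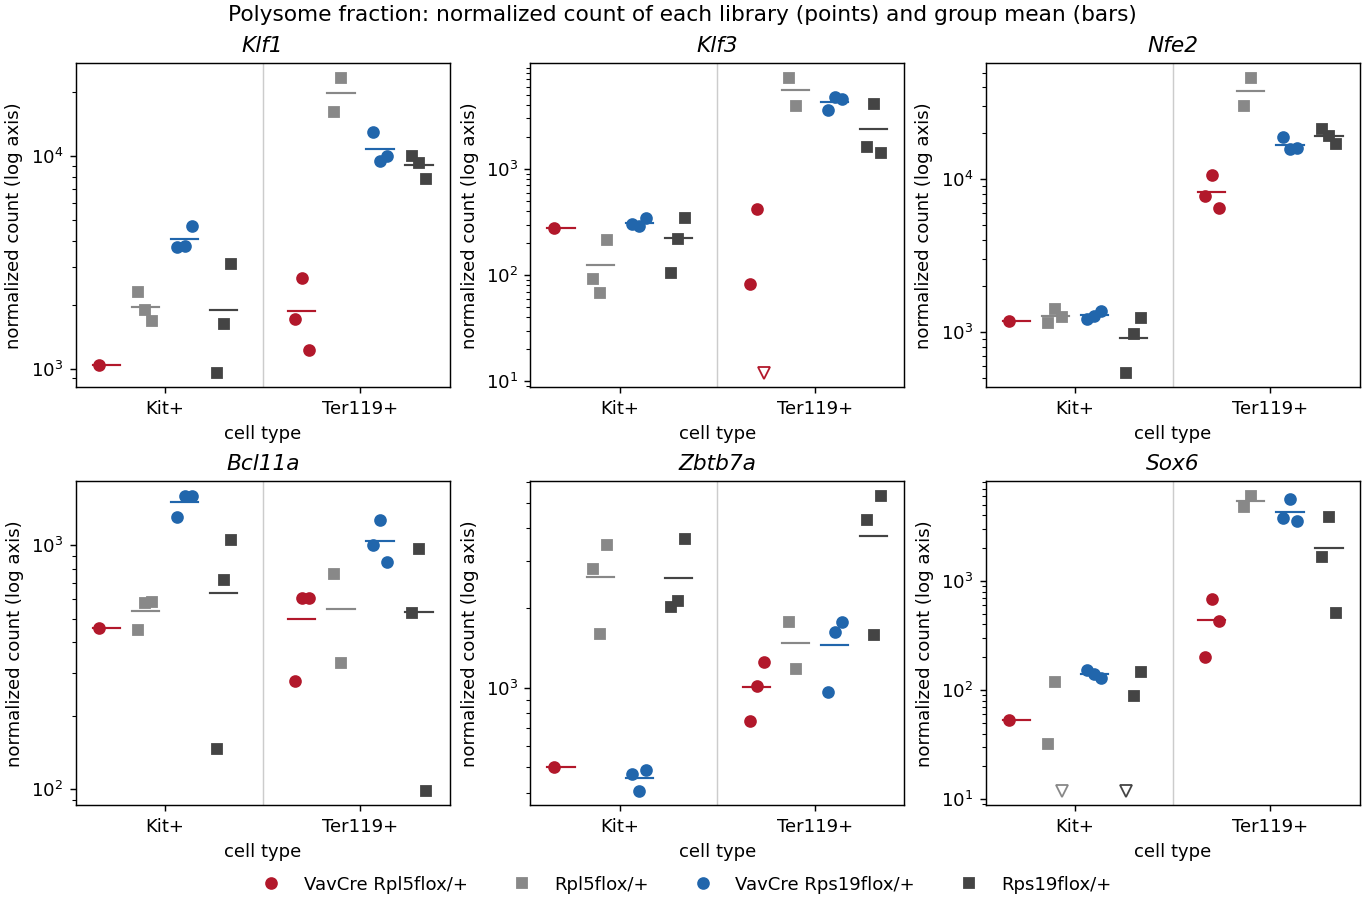
Normalized counts (log axis) of the 6 genes in the 21 polysome libraries by genotype and cell type, with open triangles for libraries at 0 reads and bars for means of groups with no such library. Zbtb7a lies at 407 to 488 in VavCre Rps19flox/+ Kit+ libraries, below all controls, and Klf1, Klf3, Nfe2 and Sox6 are low in VavCre Rpl5flox/+ Ter119+ libraries.

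On Ter119+ polysomes Klf1, Klf3, Nfe2 and Sox6 fell with Rpl5, 4 of 6 members where 13.2% of all genes were called. Klf1 had 1703, 2656 and 1218 normalized counts in VavCre Rpl5flox/+, against 16144 and 23298 in Rpl5flox/+, 10.9-fold lower (-3.45 ± 0.35 (adjusted p = 0.000104)). Nfe2 had 7765, 10697 and 6456 normalized counts in VavCre Rpl5flox/+, against 30064 and 46201 in Rpl5flox/+, 4.58-fold lower (-2.20 ± 0.28 (adjusted p = 0.000342)). Sox6 had 201, 679 and 426 normalized counts in VavCre Rpl5flox/+, against 4759.8 and 6041 in Rpl5flox/+, 13.3-fold lower (-3.73 ± 0.72 (adjusted p = 0.00476)). In all 3 the VavCre libraries lay below both controls. Klf3 had 81.7, 423 and 0 normalized counts in VavCre Rpl5flox/+, against 7248 and 3904 in Rpl5flox/+, the VavCre values being 13, 256 and 0 reads, so its fitted change of -6.29 ± 1.2 (adjusted p = 0.00456) is no measured fold. Without the VavCre library at 1.02 M reads, which is the one at 0, Klf3 stood at -4.70 ± 0.63 (adjusted p = 0.000171), Klf1 at -3.18 ± 0.30 (adjusted p = 2.15e-05), Nfe2 at -2.03 ± 0.28 (adjusted p = 0.000208) and Sox6 at -3.80 ± 0.72 (adjusted p = 0.00195). The adjusted p of Klf3 and Sox6 reached 0.0641 and 0.0650 when another library was left out.

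Zbtb7a had 748, 1009 and 1249 normalized counts in VavCre Rpl5flox/+, against 1774 and 1174 in Rpl5flox/+, with overlap (-0.55 ± 0.55 (adjusted p = 0.542)). Its cytoplasm level was 3.96-fold lower, but the polysome minus cytoplasm difference did not pass between these genotypes (1.44 ± 0.75 (adjusted p = 0.391)). Bcl11a had 276, 606 and 609 normalized counts in VavCre Rpl5flox/+, against 762 and 329.5 in Rpl5flox/+, again with overlap (-0.10 ± 0.84 (adjusted p = 0.955)). The median change of all genes was -1.0, and per M reads it was 0.13, with 22.3% and 83.9% of the called genes higher (39.2% outside globin genes). Per M reads Nfe2 (-0.56, adjusted p = 0.230) and Sox6 (-2.12, adjusted p = 0.0872) were not called. Globin genes took 28 to 82.2% of reads in Ter119+ polysomes. All 8 erythroid markers were lower (sum 8682000 to 17950000 in VavCre Rpl5flox/+ against 52330000 to 103500000 in Rpl5flox/+), and 7 of 15 granulocyte and monocyte markers were higher (105500 to 280200 against 15220 to 25970). Their part in the lower Klf1, Klf3, Nfe2 and Sox6 was not tested.

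With Rps19 no member was called on Ter119+ polysomes, where 0.801% of all genes were called by limma and 1449 had an unadjusted p under 0.05. Unadjusted, 2 members did, Zbtb7a (-1.23, adjusted p = 0.298) and Sox6 (1.49, adjusted p = 0.335). Zbtb7a had 963, 1622 and 1770.0 normalized counts in VavCre Rps19flox/+, against 4315, 1586 and 5319 in Rps19flox/+, and Sox6 had 3774, 5628 and 3572 normalized counts in VavCre Rps19flox/+, against 1674, 3854 and 511 in Rps19flox/+. Both overlapped between groups. Klf1 ran at 9463 to 12891 in VavCre Rps19flox/+ against 7827 to 10000.1 in Rps19flox/+, Klf3 at 3608 to 4799 against 1426 to 4121, Nfe2 at 15695 to 18985 against 17079 to 21226 and Bcl11a at 856 to 1270 against 98.3 to 966, all with overlap. The called genes were higher in 28.2%, against 80.6% per M reads and 100% outside globin genes. The lines differed for Klf1 (-3.70 ± 0.47 (adjusted p = 0.000493)), Nfe2 (-2.01 ± 0.38 (adjusted p = 0.00513)), Sox6 (-5.23 ± 0.96 (adjusted p = 0.00493)) and Klf3 (-7.30 ± 1.61 (adjusted p = 0.0135), a value that includes the library at 0), with 10.4% of all genes called. Without the library under 2 M reads Klf3 differed by -5.71 ± 0.81 (adjusted p = 0.000345). The median difference of all genes was -1.67, so relative to it Nfe2 stood at -0.35 and Klf1 at -2.03. The call of Nfe2 was lost per M reads (-0.94, adjusted p = 0.152), outside globin genes (adjusted p = 0.0559) and without a trend (adjusted p = 0.104), and that of Klf3 without a trend (adjusted p = 0.0554) and on log2 of the count plus 1 (adjusted p = 0.0710). Called genes were higher in 24.6% there, against 65.3% per M reads.

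In control polysomes 4 members rose with maturation, in the direction they had in cytoplasm. Klf1 (2.86 ± 0.27 (adjusted p = 7.07e-08)), Klf3 (4.35 ± 0.72 (adjusted p = 0.000102)), Nfe2 (4.65 ± 0.22 (adjusted p = 2.00e-12)) and Sox6 (6.07 ± 0.80 (adjusted p = 6.12e-06)) were higher in Ter119+ than in Kit+ controls, where 24.9% of all genes were called. Sox6 was at 0 in 2 Kit+ control libraries, both under 2 M reads, and without libraries under 2 M reads it differed by 4.99 ± 0.56 (adjusted p = 2.68e-06). Bcl11a (-0.22 ± 0.55 (adjusted p = 0.821)) and Zbtb7a (-0.19 ± 0.35 (adjusted p = 0.752)) did not pass on the deposited scale. Per M reads all 6 members were called, Bcl11a and Zbtb7a among them. Called genes were higher in 70.9%, against 65.6% outside globin genes and 19.4% per M reads.

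Set against the cytoplasm of the same pools, Zbtb7a was the 1 member higher on Kit+ control polysomes. Its polysome minus cytoplasm difference was 0.91 ± 0.20 (adjusted p = 0.00660), with 2805, 1601 and 3460.3 on polysomes against 1412, 1116 and 1359.7 in cytoplasm of Rpl5flox/+ and 2015, 2120.1 and 3639 against 1464, 1382 and 1226 of Rps19flox/+, higher in each pool. Klf3 (-2.38 ± 0.33 (adjusted p = 0.000728)), Sox6 (-2.96 ± 0.72 (adjusted p = 0.00912)), Bcl11a (-1.52 ± 0.36 (adjusted p = 0.00830)) and Klf1 (-1.02 ± 0.26 (adjusted p = 0.0107)) were lower, and Nfe2 did not pass (-0.48 ± 0.22 (adjusted p = 0.0920)). The median of all genes was -1.34 and 58.5% were called, so Klf1 and Nfe2 stood above that median and Klf3 below it. Per M reads, where the median was -1.97, Zbtb7a was at -0.03, and relative to the median it stood at 2.25 on the deposited and 1.94 on the scale per M reads. Called genes were higher in 15.49%, against 3.95% per M reads.

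**Figure D5:**
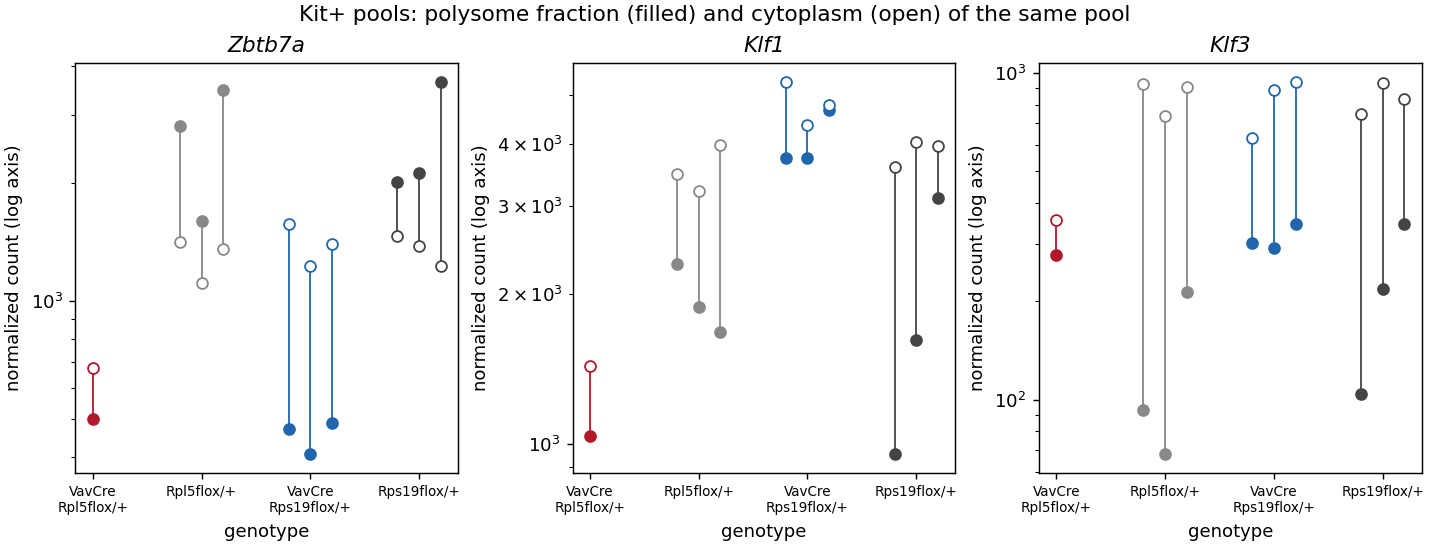
Zbtb7a, Klf1 and Klf3 in Kit+ cells (normalized counts, log axis) on polysomes (filled) and in cytoplasm (open), by genotype, 1 point a library. Zbtb7a is higher on polysomes than in cytoplasm in both control groups. It is lower in VavCre Rps19flox/+ cells and in the 1 VavCre Rpl5flox/+ pool with both fractions. Klf3 is lower on polysomes in each group.

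In Ter119+ controls no member was called between polysomes and cytoplasm (3.95% of all genes called by limma, 2746 with an unadjusted p under 0.05), though Sox6 (unadjusted p = 0.00584), Zbtb7a (unadjusted p = 0.0187) and Klf3 (unadjusted p = 0.0312) had an unadjusted p under 0.05, all 3 with lower values on polysomes (-1.50, -1.04 and -1.83). Called genes were higher in 70.2%, against 80.6% outside globin genes and 19.1% per M reads. The change of the polysome minus cytoplasm difference in Ter119+ cells called 0.0184% of all genes with Rpl5 and 0.00918% with Rps19, that is 2 genes and 1 gene, none of them a member. By unadjusted p under 0.05 there were 1416 and 956 genes, among them Klf3 with Rpl5 (-3.39, adjusted p = 0.384) and Sox6 with Rps19 (1.91, adjusted p = 0.541).

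Across the 24 cytoplasm libraries, after the mean of each cell type was subtracted, Klf1, Klf3 and Zbtb7a varied together (Pearson r = 0.94 for Klf1 with Klf3, 0.95 for Klf1 with Zbtb7a and 0.95 for Klf3 with Zbtb7a). Sox6 followed Klf3 (0.92), Nfe2 followed Klf1 less closely (0.76), and Bcl11a stood between -0.52 and 0.03 with the others. The libraries share genotype, size factors and cell composition, so these values describe the set and are no test. Among 8945 genes, the closest in pattern to Klf1 were Epor, the erythropoietin receptor (0.99), Pigq (0.99) and E2f4 (0.98). Closest to Klf3 were Nek2, Gpsm2 and Ermap (0.98 each), and to Sox6 Trak2 (0.99), Picalm (0.97) and Nxpe2 (0.97). Nfe2 was most like Adipor1, Cmas and Slc25a39, a mitochondrial carrier (0.97 each), and Zbtb7a most like Usp49, Lpcat1 and Slc66a2 (0.98 each). Bcl11a had looser neighbours, Lonp1 (0.87), Aldh18a1 (0.85) and Nf2 (0.84).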

How the data were processed

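Log2 values were deposited for 13449 genes and 45 libraries of mouse fetal liver in 1 file. The authors made these log2 values by a variance-stabilising transformation of reads divided by 1 size factor per library, as inverting it shows: whole reads came back for 100.0% of values (largest deviation 3.2e-07, tolerance 1e-06), and the lowest log2 value, 2.923, stands for 0 reads. The size factors were medians of ratios over 2434 genes, and every gene had a total of at least 10 reads. The genome build was mm10, per the submitters' processing notes, while neither the aligner nor the counter is named in the sources used here. Positions and promoters are RefSeq's for GRCm38.p6, which listed 13226 of the symbols. Transcript lengths were not used here, so levels are not compared between genes.

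Genes whose normalized counts averaged at least 10 were tested on the deposited log2 values by limma 3.58.1 under R 4.3.3, two-sided, using lmFit and a trended eBayes, with Benjamini-Hochberg adjustment over those genes and a threshold of 0.05. A VavCre group was set against the floxed controls of its own line within a cell type and fraction, and the spread was estimated over the 4 genotypes. Cell types were compared in 1 fit over all libraries of a fraction, and polysomes with cytoplasm by differences within a pool. Only the Rps19 genotype fit was run on simulated counts, for Kit+ cytoplasm and Ter119+ polysome, with the same spread setting for every gene. The other fits were not simulated. Overlap between groups was looked at for the members only, so no share of all genes stands beside it. Libraries of the same replicate number deviated together (every correlation over 0.1) for Rpl5 in Kit+ cytoplasm (0.244 to 0.305) and Ter119+ cytoplasm (0.134 to 0.273), but not for Rps19 in Kit+ (-0.0385 to 0.0112) or Ter119+ cytoplasm (0.00809 to 0.363) or on polysomes. The reported fits left the replicate number out all the same. With it as a block, Bcl11a passed in Rpl5 Ter119+ cytoplasm and in the Rpl5 step. None of 43 replicate pairs were copies (lowest chi-square per degree of freedom 21.8).

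The 6 members, the pathway and marker lists and the tests were chosen with earlier results of these data known. The text names all members in every comparison, of each pathway list up to 4 genes with the smallest adjusted p, and for each member the 3 genes most correlated with it among genes with a mean of at least 50. Tfr2, Kit, Lars2, Rpl5 and Rps19 are named for a result that turns on them. Alternatives were log2 of the normalized count plus 1, rescaled libraries, no filter, a mean of at least 50, no trend, only 2 groups, a replicate block, a fit within each line, no libraries under 2 M reads and each replicate left out. Scaling per M reads, with or without globin genes, was added after seeing the data.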

Additional observations from a re-analysis of the deposited data

Results flagged for a closer look

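The change with Rpl5 differed from the change with Rps19, by a test of the difference itself in limma, for 13 pairs of a member and a setting. In Kit+ cytoplasm the differences were -1.36 for Klf1, -1.07 for Klf3, -0.973 for Zbtb7a and -0.387 for Bcl11a on the log2 scale. In Ter119+ cytoplasm they were -1.8 for Klf1, -2.37 for Klf3, -1.09 for Nfe2, -1.72 for Zbtb7a and -2.01 for Sox6. On Ter119+ polysomes they were -3.7 for Klf1, -7.3 for Klf3, -2.01 for Nfe2 and -5.23 for Sox6, and that of Klf3 includes a VavCre Rpl5flox/+ library with 0 reads.

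The Ter119+ minus Kit+ step differed between VavCre and floxed cytoplasm for 6 further pairs. With Rpl5 the differences were -1.15 for Klf1, -1.72 for Klf3, -1.43 for Nfe2, -1.05 for Zbtb7a and -1.21 for Sox6, and with Rps19 -0.706 for Klf1. Per M reads none of these 6 was called, that of Klf1 with Rps19 being -0.20 (adjusted p = 0.607). Groups of 3 libraries or fewer were not screened for single libraries that stand apart.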

How the results depend on the processing

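The count of members called stayed within 1.5 times the reported count in every alternative run for the cytoplasm comparisons of Kit+ cells and their difference between lines, Rpl5 Ter119+ cytoplasm and the difference between lines there, Rps19 Ter119+ polysome, Ter119+ against Kit+ controls in both fractions, polysome against cytoplasm in Kit+ controls, and the Rps19 change of that difference in Ter119+ cells. In the others at least 1 alternative moved it. In Kit+ polysome, Rpl5 gave 1 member without a filter and 3 without libraries under 2 M reads, a fit with 1 Rps19flox/+ library, against 0. Rps19 gave 2 with a mean of at least 50, 3 without libraries under 2 M, 4 per M reads and 4 per M reads outside globin genes, against 1, and the difference between lines gave 1 without libraries under 2 M, against 0. In Ter119+ cytoplasm Rps19 gave 0 without a filter, 0 without a trend, 2 with only 2 groups, 0 per M reads and 0 outside globin genes, against 1. On Ter119+ polysomes Rpl5 gave 2 per M reads, against 4, and the difference between lines 2 without a trend, against 4. The Rpl5 step gave 1 per M reads and 3 outside globin genes, against 5, and the Rps19 step 0 and 0, against 1. Polysome against cytoplasm in Ter119+ controls gave 2 without libraries under 2 M, 2 with a replicate block and 1 per M reads, against 0, and the Rps19 change of that difference in Kit+ cells gave 0 with a replicate block, against 1. The block changed no other count of members by over 1.5 times. With 1 library left out, counts ran between 0 and 1 for Rpl5 Kit+ polysome, the Kit+ polysome difference between lines, Rps19 Ter119+ cytoplasm, the Rps19 step, polysome against cytoplasm in Ter119+ controls, and the changes of that difference with Rps19 in Kit+ and Rpl5 in Ter119+ cells, and between 1 and 2 for Rps19 Kit+ polysome.

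Signs turned with 1 library left out for 2 uncalled members in Rps19 Kit+ cytoplasm, Klf3 (-0.151 to 0.129) and Zbtb7a (-0.0480 to 0.130). Per M reads they turned in Rps19 Ter119+ cytoplasm for Klf1 (0.101), Klf3 (0.0247), Nfe2 (0.119), Zbtb7a (0.223) and Sox6 (0.0700), between Ter119+ and Kit+ controls for Zbtb7a (-0.443), in the Rpl5 step for Klf1 (0.279), Nfe2 (0.00135), Zbtb7a (0.377) and Sox6 (0.257), in the Rps19 step for Klf3 (0.0878), Nfe2 (0.232), Bcl11a (0.270) and Zbtb7a (0.201), and between polysome and cytoplasm in Kit+ controls for Zbtb7a (-0.0260). Outside globin genes they turned in the Rps19 step for Nfe2 (0.00304) and Bcl11a (0.0511) and between polysome and cytoplasm in Kit+ controls for Zbtb7a (-0.0189). By construction the scale moves all genes of a library alike, and the cause of the other shifts was not tested.

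Over all genes the number called moved by more than 1.5 times on polysomes and in the Rpl5 step. It was 192 (21 to 1916 over the alternatives) for Rpl5 and 1041 (662 to 2365) for Rps19 in Kit+ polysome, 159 (52 to 1884) for their difference, 1406 (569 to 2205), 85 (3 to 673) and 1100 (494 to 2390) in Ter119+ polysome, 2683 (1477 to 3511) between cell types on polysomes, 5332 (4961 to 8118) for the Rpl5 step, 430 (248 to 3577) for polysome against cytoplasm in Ter119+ controls, and 578 (1 to 2139), 2 (0 to 3) and 1 (0 to 7) for the changes of that difference with Rps19 in Kit+, Rpl5 in Ter119+ and Rps19 in Ter119+ cells. Depth limits the polysome values, where 4 libraries had under 2 M reads and every member but Zbtb7a and Klf1 rested on 26 reads or fewer in some.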
